A study of Mus musculus with 6 samples.

Results

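The genes described here encode the subunits of 3 families of neurotransmitter receptor, those for GABA, for glycine and, among the acetylcholine receptors, the nicotinic ones. They were chosen by symbol alone (Gabr, Gabbr, Glra, Glrb and Chrn genes), and 42 of the 32719 genes in the count files matched. Of these, 19 encode subunits of the GABA-A receptor, 2 the GABA-B receptor, 5 the glycine receptor, 11 the nicotinic receptors of neurons and 5 the nicotinic receptor of skeletal muscle. RNA came from vagal jugular-nodose ganglia, where the sensory neurons of the vagus nerve have their cell bodies. There were 3 libraries titled as treated and 3 titled as control. The protocol describes wild-type male C57BL/6J mice with subcutaneous osmotic pumps that delivered, for 2 weeks, either PBS with S961, a peptide blocker of the insulin receptor (10 nmol each week), or PBS alone. All 6 libraries carry S961 as their treatment label, and the control group is therefore known as the PBS group from its titles and the protocol only. Age is not given, and the labels do not say whether each library is a separate animal, so p-values measure the spread between these libraries, which may be technical.

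GABA-A, glycine and nicotinic receptors are channels built from subunits around a central pore and belong to a single superfamily, named for a loop closed by a cysteine bond. GABA-A and glycine receptors conduct chloride. Sensory ganglion neurons keep chloride high inside the cell, so GABA tends to depolarise their cell bodies and terminals, whereas nicotinic receptors pass cations and depolarise. GABA-B receptors are G-protein-coupled dimers that dampen calcium channels and transmitter release, and on the endings of vagal afferents they reduce firing and reflexes.

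As tissue, all 6 libraries are labelled spinal cord, and as cell type, jugular-nodose ganglia. Pan-neuronal markers summed to 5611, 5415 and 4341 CPM (counts scaled to a common library size) in treated replicates 1, 2 and 3. In controls they summed to 5189 to 5721 CPM, so that treated replicate 3 alone lay below every control. The 8 genes listed for spinal cord and central glia summed to 13.6, 13.1 and 16.0 CPM in treated replicates 1, 2 and 3 and to 10.6, 12.7 and 13.8 CPM in controls. Most of this was the water channel Aqp4, at 10.6 to 12.2 CPM in treated libraries and 9.62 to 12.8 CPM in controls. The glial filament gene Gfap had 0.802, 1.81 and 3.89 CPM in treated libraries and 0.859, 0.653 and 0.675 CPM in controls (log2 fold change 1.54 ± 0.62, edgeR adjusted p = 0.737). The oligodendrocyte gene Opalin had 0.149, 0 and 1.27 CPM in treated libraries and 0 in every control, and the other 5 genes, among them Mog, stayed at or below 0.337 CPM in every library. The libraries held 12898607 to 33522486 gene counts, of which 0.094% to 0.1525% fell on the 42 receptor genes. Treated replicate 3 was the smallest library and stood apart. Of the nodose markers 6 of 6, and of the jugular markers 0 of 5, had a negative log2 fold change (treated over control). In treated replicate 3 nodose markers summed to 208.3 CPM, against 368.8 and 407.2 CPM in the other treated libraries and 486.0 to 500.9 CPM in controls. Jugular markers summed to 281.0 to 526.4 CPM in treated libraries, the highest being replicate 3, and to 221.6 to 248.0 CPM in controls. Markers of sympathetic neurons and glomus cells summed to 55.1 to 88.0 CPM in treated libraries and 117.4 to 133.9 CPM in controls. Fat cell markers summed to 7.76, 52.8 and 449.0 CPM in treated replicates 1, 2 and 3 and to 11.0 to 36.6 CPM in controls. The part of these cell markers in the receptor values below was not tested, and in such bulk samples fewer cells of a type cannot be told apart from less RNA per cell.

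Sequences are given for genes whose data the account turns on: those with an unadjusted p under 0.05 and, for Chrna3 and Chrnb4, a pair of cluster neighbours that were both lower in every treated library. Each is a promoter window of 300 bases, with 250 bases before and 50 after the annotated start, from RefSeq (GRCm38.p6) on the gene's own strand. Capitals mark GGGCGG or its complement CCGCCC, the GC box bound by Sp factors. The windows are those of Gabbr2 (chr4:46991665-46991964, minus strand), Gabrg1 (chr5:70842568-70842867, minus strand), Chrna7 (chr7:63212477-63212776, minus strand), Chrna3 (chr9:55026513-55026812, minus strand) and Chrnb4 (chr9:55048495-55048794, minus strand). RefSeq windows were matched for 33 of the 42 genes, and Chrnb3 was not among them.
Gabbr2: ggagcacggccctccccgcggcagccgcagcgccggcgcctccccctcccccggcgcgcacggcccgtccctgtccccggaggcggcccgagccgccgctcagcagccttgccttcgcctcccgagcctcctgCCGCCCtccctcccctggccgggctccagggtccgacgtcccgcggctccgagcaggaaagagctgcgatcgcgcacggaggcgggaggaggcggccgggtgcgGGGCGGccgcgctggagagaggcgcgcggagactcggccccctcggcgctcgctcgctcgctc
Gabrg1: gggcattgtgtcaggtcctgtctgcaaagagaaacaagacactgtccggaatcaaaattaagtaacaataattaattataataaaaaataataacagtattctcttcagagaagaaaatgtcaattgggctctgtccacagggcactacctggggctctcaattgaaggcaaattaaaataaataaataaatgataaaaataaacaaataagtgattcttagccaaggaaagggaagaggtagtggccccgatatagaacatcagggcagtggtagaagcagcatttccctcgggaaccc
Chrna7: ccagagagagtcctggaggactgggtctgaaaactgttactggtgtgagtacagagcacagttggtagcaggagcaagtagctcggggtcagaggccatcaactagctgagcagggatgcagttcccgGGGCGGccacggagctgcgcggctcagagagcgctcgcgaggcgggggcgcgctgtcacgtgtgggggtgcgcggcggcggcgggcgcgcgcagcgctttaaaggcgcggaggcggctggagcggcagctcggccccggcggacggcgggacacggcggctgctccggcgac
Chrna3: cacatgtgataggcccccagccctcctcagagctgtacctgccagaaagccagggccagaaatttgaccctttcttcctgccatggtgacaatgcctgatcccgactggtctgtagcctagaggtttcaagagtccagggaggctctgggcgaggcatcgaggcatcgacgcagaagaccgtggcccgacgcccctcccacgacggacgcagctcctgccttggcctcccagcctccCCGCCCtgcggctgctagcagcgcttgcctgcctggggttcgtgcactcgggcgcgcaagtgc
Chrnb4: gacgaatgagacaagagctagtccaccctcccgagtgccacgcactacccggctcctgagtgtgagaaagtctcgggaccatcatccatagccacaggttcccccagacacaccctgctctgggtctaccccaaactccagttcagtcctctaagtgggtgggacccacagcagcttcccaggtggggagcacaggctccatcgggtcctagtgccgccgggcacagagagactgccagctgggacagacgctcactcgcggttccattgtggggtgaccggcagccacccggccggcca

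The 5 windows differ in make-up. That of Gabbr2 is 80.3% G or C with 46 CpG dinucleotides and 2 GC boxes, whereas that of Gabrg1 is 38.3% G or C with 3 CpG and 0 GC boxes. Chrna7 has 1 GC box and 35 CpG, Chrna3 has 1 GC box and 18 CpG, and Chrnb4 has 0 GC boxes and 14 CpG. Searched on both strands and with overlapping matches allowed, GGGCGG occurred in 18 of the 38 windows listed for the receptor genes and in 35.7% of all 32851 promoter windows of this length. The cyclic-AMP response half-site TGACG occurred in 6 of the 38 windows and in 20.8% of all windows, and in 0 of the 5 windows printed. The E-box CANNTG occurred in 24 of the 38 and in 72.3% of all, and TATAAA in 5 of the 38 and in 13.6% of all. A match describes letters and not a site in use.

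Of the 42 genes, 26 passed the filter on low counts and were tested. With edgeR's quasi-likelihood test 0 of the 26 passed at an adjusted p of 0.05, as did 0.0% of all 16019 genes tested, and the smallest adjusted p among the receptor genes was 0.685. DESeq2 and limma-voom with sample weights also called 0 of the 26, while they called 0.556% and 0.0562% of all genes. At an unadjusted p under 0.05, 2 receptor genes were higher (Gabbr2 and Chrna7) and 2 lower (Gabrg1 and Chrnb3) in treated ganglia, or 7.69% of the 26 in each direction, against 4.0% higher and 2.67% lower over all genes. These counts moved when a library was left out. Leaving out treated replicate 1, 0 receptor genes were higher and 8 lower (6.6% and 4.19% of all genes). Leaving out treated replicate 2, 3 were higher and 1 lower (4.39% and 2.54%). Leaving out treated replicate 3, 4 were higher (Gabbr2, Gabra2 and Gabrb2 among them) and 4 lower (Chrna3, Chrnb3, Chrnb4 and Gabrg1), against 3.58% and 4.39%. With control replicate 1 left out, 1 was higher and 1 lower (2.18% and 1.26%), with control replicate 2, again 1 and 1 (4.25% and 2.02%), and with control replicate 3, 1 and 0 (1.9% and 1.34%). In CPM, the treated libraries were all higher than every control for 1 receptor gene (Gabbr2, 3.85% of the 26, against 7.07% of all genes). They lay below for 5 receptor genes (Gabrg1, Glrb, Chrna3, Chrnb3 and Chrnb4, 19.2%, against 7.63% of all genes). Without treated replicate 1 the groups did not overlap for 12 of the 26 and without treated replicate 2 for 11, against 30.9% and 23.6% of all genes, and with treated replicate 3 left out for 9, also against 23.6%. Leaving out control replicate 1, 2 or 3 gave 6, 7 and 9 such genes, against 20.7%, 27.3% and 22.7% of all genes in the same order.

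**Figure D1:**
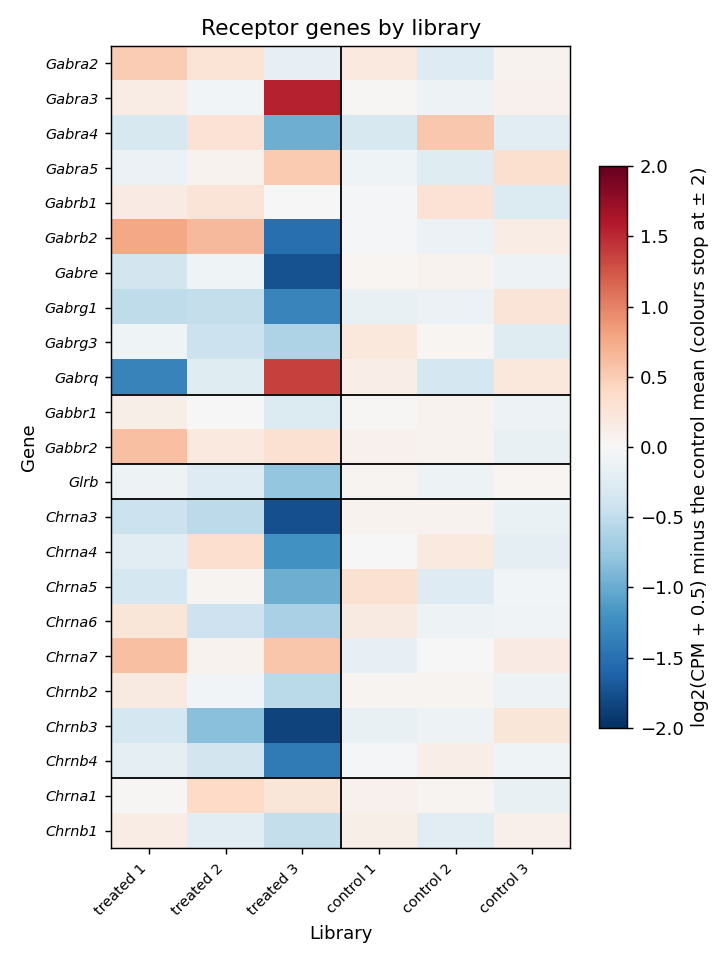
Rows are tested receptor genes and each column is a library, and colour gives log2(CPM + 0.5) minus the mean of the 3 controls, with black lines between receptor classes. Treated replicate 3 is the lowest of the 6 libraries for 7 of the 8 neuronal nicotinic genes and the highest for Gabra3, Gabra5 and Gabrq.

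The plot of genes by library shows that treated replicate 3 was the lowest of the 6 libraries for 18 of the 26 receptor genes (69.2%), against 34.3% of all genes, and the highest for 3 (Gabra3, Gabra5 and Gabrq). The median log2 fold change of the 26 was -0.19, with 10 positive and 16 negative, against a median of 0.02 over all genes. Without treated replicate 3 it was -0.03. Together the 42 genes summed to 1519, 1336 and 963.8 CPM in treated replicates 1, 2 and 3, and to 1425, 1390 and 1361 CPM in controls.

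The receptor genes spanned a wide range of levels. Per kilobase of exon, which allows genes to be compared, Gabbr1 was the highest in controls at 57.5 ± 3.41 CPM per kb (SD, n = 3), followed by Chrna3 at 36.2 ± 2.96, Gabbr2 at 20.0 ± 1.83, Glrb at 16.9 ± 1.02 and Chrnb4 at 16.7 ± 1.42 CPM per kb. The last 2 did not differ beyond their spread. In treated ganglia Gabbr1 was at 55.5 ± 7.47 CPM per kb, Gabbr2 at 25.9 ± 3.91 and Chrna3 at 20.8 ± 8.90, so that the ranges of mean ± SD of Gabbr2 and Chrna3 overlapped. The level of a gene per kilobase depends on the annotated exon length, which counts untranslated ends in full.

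**Figure D2:**
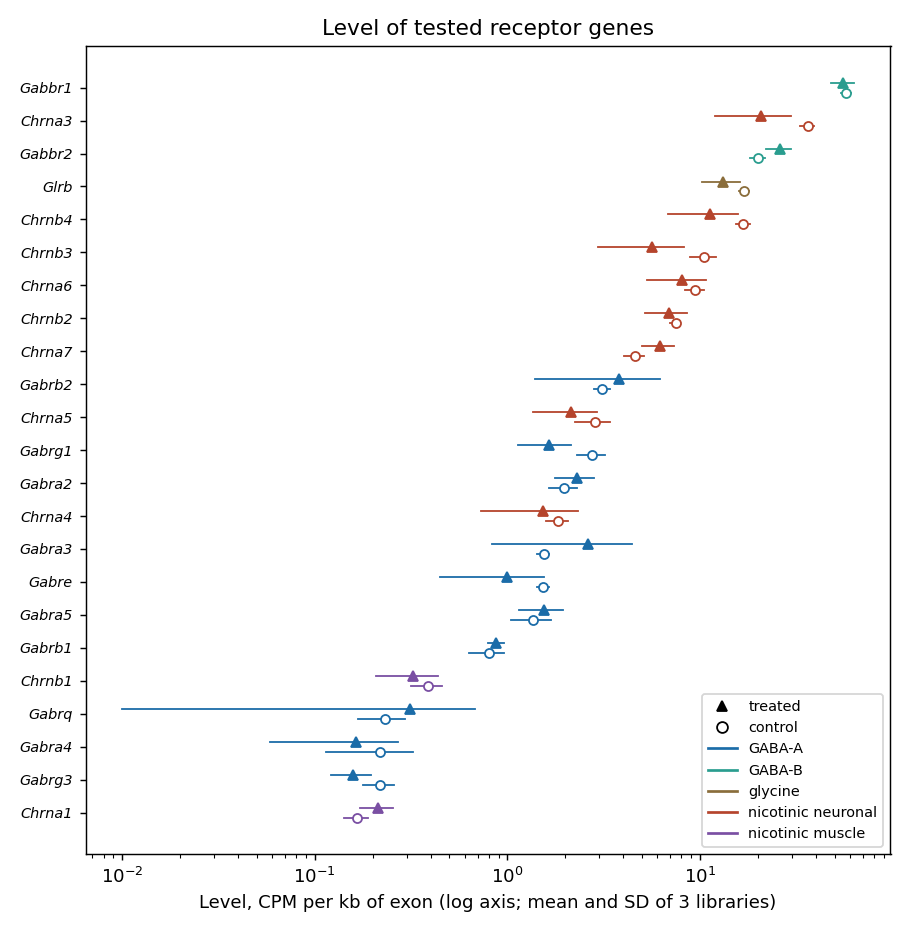
The horizontal axis gives the level in CPM per kb of exon on a log scale, with treated means as filled triangles and control means as open circles, and lines of ± SD over 3 libraries, stopped at 0.01 where the SD exceeds the mean. Among the genes plotted, Gabbr1 has the highest level in both groups, and the muscle gene Chrna1 is the lowest in controls.

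The GABA-B receptor works as a dimer, in which the Gabbr1 product binds GABA and the Gabbr2 product couples to the G protein. Gabbr2 (ENSMUSG00000039809, chromosome 4, 46662305 to 46991873, GRCm38) had 202.7, 152.8 and 164.3 CPM in treated replicates 1, 2 and 3 and 140.9, 140.8 and 119.7 CPM in controls. Every treated library lay above every control. The log2 fold change was 0.37 ± 0.13 (SE; unadjusted edgeR p 0.0218 and adjusted p = 0.695, n = 3 each), and over 13 other settings it stayed between 0.23 and 0.45. With a library left out the unadjusted edgeR p ran from 0.0163 to 0.0864. It was above 0.05 without treated replicate 1 (0.081) or control replicate 3 (0.0864), and under 0.05 without any other library. Gabbr1 (chromosome 17, 37045966 to 37075067) had 481.1, 444.6 and 367.5 CPM in treated libraries and 454.6, 467.9 and 416.8 CPM in controls. Its groups overlapped, and its log2 fold change was -0.05 ± 0.12. Among genes whose products bind the receptor are the potassium-channel-tetramerisation family members Kctd8, Kctd12, Kctd12b and Kctd16, which set how fast its response fades. Named here for that role, they were at 0.11 ± 0.10, 0.25 ± 0.40, -0.11 ± 0.39 and 0.09 ± 0.11.

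GABA-A receptors usually combine alpha, beta and gamma subunits, and the alpha subunit shapes affinity and the response to benzodiazepines. Of the 19 genes, 13 were tested, with 7 positive and 6 negative log2 fold changes and a median of 0.14, which was -0.20 with replicate number as a block, and -0.04 or -0.03 with treated replicate 1 or treated replicate 3 left out. Gabrb2 (chromosome 11, 42419757 to 42629028), which encodes a beta subunit, had 34.2, 31.4 and 6.59 CPM in treated replicates 1, 2 and 3 and 19.5, 18.1 and 21.9 CPM in controls. Treated replicates 1 and 2 were above all controls and replicate 3 below them. The log2 fold change was 0.30 ± 0.56 (SE), and without treated replicate 3 it was 0.73 (edgeR adjusted p = 0.0936, n = 2 and 3). Without treated replicate 1 it was -0.04.

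Gabra3 and Gabrq ran the other way in the same library. Gabra3 (chromosome X, 72432681 to 72656848), which encodes the alpha 3 subunit, had 6.75, 5.78 and 18.4 CPM in treated replicates 1, 2 and 3 and 6.18, 5.57 and 6.41 CPM in controls. Treated replicate 3 alone stood above the rest, and the log2 fold change of 0.75 ± 0.44 (SE) was 0.05 without it. Gabrq, the theta subunit gene in the same stretch of the X chromosome, had 0.178, 0.939 and 3.89 CPM in treated replicates 1, 2 and 3 and 1.37, 0.845 and 1.48 CPM in controls. The third X-linked gene, Gabre, which encodes the epsilon subunit, had 5.50, 6.82 and 1.83 CPM in treated libraries and 7.44, 7.65 and 6.68 CPM in controls. These 3 neighbours lie within 586.6 kb, and in treated replicate 3 Gabra3 and Gabrq were at their highest and Gabre at its lowest. Jugular markers were also at their highest and nodose markers at their lowest in that library.

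**Figure D3:**
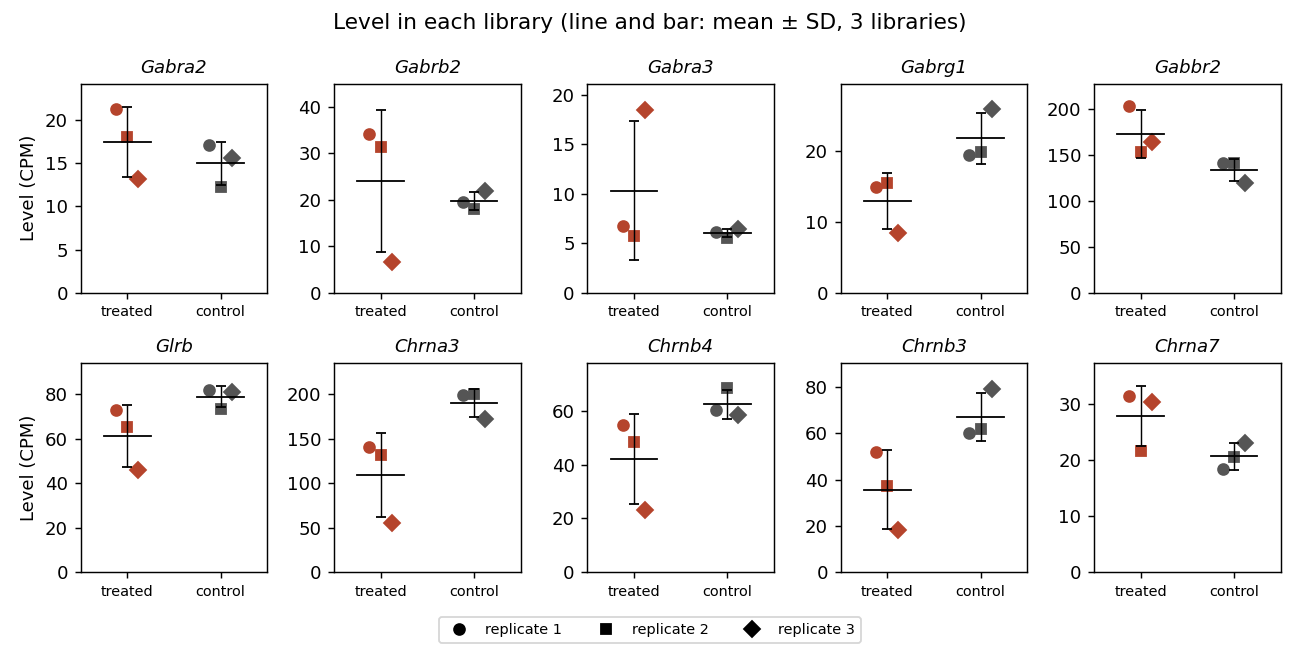
Points are single libraries, with shapes for the replicate number, and the vertical axis is the level in CPM, with lines and bars for the mean ± SD of 3 libraries. Gabrb2 is high in treated replicates 1 and 2 and low in replicate 3, while Chrna3, Chrnb3 and Chrnb4 are below the controls in every treated library.

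Gabrg1 (ENSMUSG00000001260, chromosome 5, 70751047 to 70842617), a gamma subunit gene of restricted expression in the brain, had 14.9, 15.4 and 8.34 CPM in treated replicates 1, 2 and 3 and 19.4, 19.8 and 25.8 CPM in controls. Every treated library lay below every control. The log2 fold change was -0.74 ± 0.24 (SE; unadjusted edgeR p 0.0172 and adjusted p = 0.685, n = 3 each), and -0.51 without treated replicate 3. With a library left out the unadjusted edgeR p of Gabrg1 ran from 0.00637 to 0.0726. It was above 0.05 only without control replicate 3.

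Among other subunits of this receptor, Gabra2 had 21.3, 18.1 and 13.2 CPM in treated libraries and 17.1, 12.3 and 15.6 CPM in controls, at a log2 fold change of 0.23 ± 0.21 (SE). That value was 0.06 with treated replicate 1 left out, 0.10 with control replicate 2 and 0.40 with treated replicate 3 (unadjusted edgeR p 0.0334). The beta subunit gene Gabrb1 had 12.3, 13.2 and 11.0 CPM in treated libraries and 10.7, 13.4 and 8.98 CPM in controls, at 0.14 ± 0.18, which ran from 0.01 with control replicate 3 left out to 0.30 with control replicate 2. Both pairs of groups overlapped. At lower levels, the alpha subunit genes Gabra5 and Gabra4 were at 0.18 ± 0.30 and -0.40 ± 0.61, Gabrg3 at -0.45 ± 0.34, Gabre at -0.60 ± 0.42 and Gabrq at 0.38 ± 0.95. With a single library left out, Gabre ran from -0.95 (treated replicate 2) to -0.24 (treated replicate 3), Gabra4 from -0.97 (treated replicate 2) to 0.08 (control replicate 2), Gabra5 from -0.03 (treated replicate 3) to 0.38 (control replicate 3) and Gabrq from -1.14 to 0.92.

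The other 6 GABA-A genes did not pass the filter. Their counts, summed over 3 libraries each, were 7 in treated and 11 in control ganglia for Gabra6, an alpha subunit of cerebellar granule cells, and 20 and 13 in that order for Gabrd, whose delta subunit forms receptors outside synapses. Gabrp, the pi subunit gene, had 11 in treated and 6 in control libraries. The rho subunits, which form GABA receptors that are best known from the retina, had 18 and 16 for Gabrr1 and 31 and 33 for Gabrr3, treated before control. Gabrr2 had 3, 11 and 9 counts in treated replicates 1, 2 and 3 and 1, 2 and 0 in controls, too few to pass the filter, although its CPM in the 2 groups did not overlap.

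The subunit shares show how the make-up of these transcripts differed between libraries. Shares are of the CPM per kb summed within a subunit class, and they concern RNA and not assembled receptors. Since the shares of a class add up to its whole, they are not independent of each other. Gabra3 made up 7.01%, 6.51% and 36.2% of GABA-A alpha subunit RNA in treated replicates 1, 2 and 3, and 10.4%, 12.4% and 9.17% in controls. Its share was thus far higher in treated replicate 3 than in the other 5 libraries, and without that library the difference, treated minus control, was -3.88 percentage points, against 5.94 with it. Gabrg1 averaged 21.3% ± 3.08 of the gamma and other subunits in treated ganglia and 28.6% ± 2.39 in controls (SD, n = 3 each), with no overlap (two-sided exact permutation p = 0.1, adjusted p = 0.34). Of 17 shares tested in this way, 5 reached 0.1, which is the smallest p that 3 against 3 allows.

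**Figure D4:**
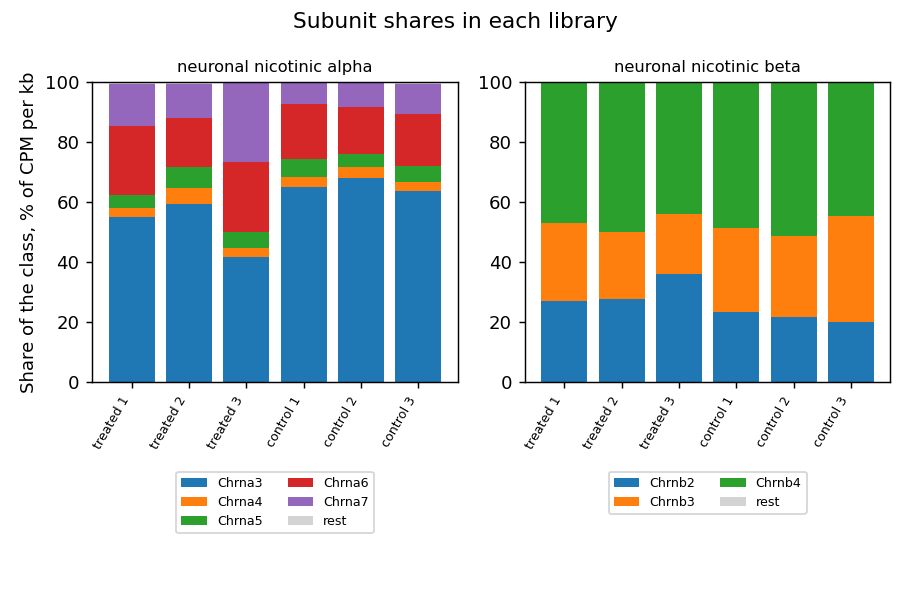
Each bar is a library and its segments are the percent of CPM per kb that each subunit gene holds within its class, with genes that average under 2% grouped as the rest. The panels are the neuronal nicotinic alpha and beta classes, and the share of Chrna3 is below its control range in every treated library.

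For glycine receptors, Glrb (chromosome 3, 80843599 to 80913660), the beta subunit that tethers the receptor to gephyrin, was the sole member tested. It had 72.9, 65.4 and 45.9 CPM in treated replicates 1, 2 and 3 and 82.0, 73.3 and 81.0 CPM in controls. Every treated library lay below every control, by a margin of less than 1 CPM between treated replicate 1 and control replicate 2, and the log2 fold change was -0.36 ± 0.16 (SE; unadjusted edgeR p 0.0632, adjusted p = 0.737, n = 3 each). Without treated replicate 3 it was -0.19. The alpha subunit genes, which carry the main part of the glycine site, were near the limit of detection. Glra1 had 16 counts over the treated and 13 over the control libraries, Glra3 had 4 and 2, and Glra4 had 4 and 6, in the same order. Glra2 had 2 counts in treated libraries and 0 in controls, where a count of 0 allows up to 0.0514 CPM over the 3 libraries, a limit that covers counting error only. Glrb thus held 99.3% ± 0.679 of glycine subunit RNA per kb in treated ganglia and 99.2% ± 0.727 in controls.

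Neuronal nicotinic receptors are built from alpha subunits with a beta partner or, for alpha 7, from alpha subunits alone. Of 11 genes, 8 were tested, of which 7 had negative and 1 a positive log2 fold change. Their median, -0.32 in all, was -0.11 with treated replicate 3 left out, -0.68 with treated replicate 2 and -0.47 with treated replicate 1 left out. The whole class summed to 396.8, 340.8 and 195.3 CPM in treated replicates 1, 2 and 3 and to 453.4, 459.4 and 434.4 CPM in controls. Every treated sum lay below every control sum. Chrna3 alone held 140.9, 132.0 and 55.7 CPM of the treated sums and 198.8, 200.2 and 172.5 CPM of the control sums. It was the largest part in every library, so the sums depend heavily on this gene. Taken singly, every treated library lay below every control for 3 of the 8 tested genes (37.5%, against 7.63% of all genes). These were Chrna3, Chrnb3 and Chrnb4, which are among the most abundant of the class. For the other tested genes of the class the groups overlapped. Nodose markers, and those of sympathetic neurons and glomus cells, were likewise below their control range in every treated library, and the part of those cells was not tested.

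Chrna3, Chrna5 and Chrnb4 lie side by side within 67.9 kb of chromosome 9, and alpha 3 with beta 4 is the main ganglionic receptor of autonomic neurons. Chrna3 (ENSMUSG00000032303, 55010111 to 55026562) had 140.9, 132.0 and 55.7 CPM in treated replicates 1, 2 and 3 and 198.8, 200.2 and 172.5 CPM in controls. Every treated library was below every control, and the log2 fold change was -0.80 ± 0.33 (SE; unadjusted edgeR p 0.0509, adjusted p = 0.737, n = 3 each). Without treated replicate 3 it was -0.48, with a smaller spread and an unadjusted edgeR p of 0.000328 (adjusted p = 0.12, n = 2 and 3). The unadjusted edgeR p of Chrna3 was 0.0367 without treated replicate 1. With treated replicate 2 or any control left out it was above 0.05 (0.0605 to 0.113). Chrnb4 (55028154 to 55048779) had 54.5, 48.3 and 23.1 CPM in treated replicates 1, 2 and 3 and 60.3, 68.3 and 58.3 CPM in controls. Its groups did not overlap either, and it was at -0.56 ± 0.30, or -0.28 without treated replicate 3. Chrna5, an accessory subunit gene, had 6.72, 9.12 and 4.21 CPM in treated libraries and 10.9, 7.26 and 8.44 CPM in controls, with overlap, at -0.39 ± 0.30, or -0.16 with treated replicate 3, -0.69 with treated replicate 2 and -0.22 with control replicate 1 left out.

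Chrnb3 and Chrna6, which encode partner subunits of dopamine neurons in the brain, lie within 45.2 kb of chromosome 8 on opposite strands. Chrnb3 (ENSMUSG00000031492, 27368711 to 27399730) had 52.0, 37.1 and 18.1 CPM in treated replicates 1, 2 and 3 and 60.1, 61.9 and 79.0 CPM in controls. Every treated library was below every control, at a log2 fold change of -0.89 ± 0.36 (SE; unadjusted edgeR p 0.0469, adjusted p = 0.737, n = 3 each). Without treated replicate 3 it was -0.59 (unadjusted edgeR p 0.021), and without treated replicate 1 it was -1.27 (0.00842). With treated replicate 2 or any control left out, the unadjusted edgeR p of Chrnb3 was above 0.05 (0.0679 to 0.11). Its neighbour Chrna6 (27403212 to 27413944) had 32.3, 20.5 and 17.3 CPM in treated libraries and 31.0, 25.3 and 25.8 CPM in controls. There the groups overlapped, since treated replicate 1 was the highest of the 6, and the log2 fold change was -0.22 ± 0.23 (SE). It was -0.54 with treated replicate 1 left out, -0.05 with treated replicate 3, and -0.14 or -0.13 with treated replicate 2 or control replicate 1.

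Chrna7 (ENSMUSG00000030525, chromosome 7, 63098692 to 63212569), which encodes the calcium-permeable alpha 7 subunit, was the sole tested neuronal nicotinic gene with a positive log2 fold change. It had 31.4, 21.6 and 30.3 CPM in treated replicates 1, 2 and 3 and 18.3, 20.6 and 23.1 CPM in controls. Treated replicates 1 and 3 lay above all controls and replicate 2 within them. The log2 fold change was 0.43 ± 0.17 (SE; unadjusted edgeR p 0.0371, adjusted p = 0.737, n = 3 each), and it ranged from 0.31 to 0.57 over 13 other settings. The unadjusted edgeR p was 0.125 and 0.0886 without control replicates 1 and 2, and 0.133 and 0.0658 without treated replicates 1 and 3. It stayed under 0.05 without control replicate 3 (0.0398) or treated replicate 2 (0.00569). Treated replicates 1 and 3 also had the higher sums of jugular markers, at 448.7 and 526.4 CPM, against 281.0 CPM in replicate 2.

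Chrnb2, the common beta partner of alpha 4 in the brain, had 70.7, 59.9 and 42.7 CPM in treated libraries and 64.6, 65.0 and 58.2 CPM in controls, with overlap, at a log2 fold change of -0.11 ± 0.17 (SE). Its exons overlap those of Adar on the opposite strand over 16.3% of their length, and the strand setting of the counting is not given in the sources used here, so that reads of the pair may be mixed. Chrna4 was at -0.24 ± 0.38, with 7.73, 11.7 and 3.65 CPM in treated libraries and 9.05, 10.5 and 8.03 CPM in controls. With treated replicate 3 left out, Chrna4 was at 0.07 and Chrnb2 at 0.06, and with treated replicate 2 left out Chrna4 was at -0.68. Chrna2, Chrna9 and Chrna10 did not pass the filter, with 9, 7 and 23 counts over the treated and 4, 4 and 24 over the control libraries. The alpha 9 and alpha 10 subunits are best known from hair cells, and 39.0% of the Chrna10 exons overlap Art1 on the opposite strand.

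Within the neuronal nicotinic alpha class, Chrna3 held 54.9%, 59.2% and 41.6% of the RNA per kb in treated replicates 1, 2 and 3 and 65.2%, 68.1% and 63.7% in controls. Chrna7 held 14.3%, 11.3% and 26.5% in treated replicates 1, 2 and 3 and 7.02%, 8.17% and 9.96% in controls. Both shares were without overlap (two-sided exact permutation p = 0.1 and adjusted p = 0.34 for each). In the beta class, Chrnb2 averaged 30.2% ± 5.04 in treated ganglia and 21.5% ± 1.65 in controls, and Chrnb3 averaged 22.9% ± 3.04 and 30.3% ± 4.50 in that order (SD, n = 3 each), again without overlap and with the same exact permutation p. Shares within the alpha class, and those within the beta class, are tied to each other. In CPM the groups overlapped for Chrnb2, at a log2 fold change of -0.11 ± 0.17 (SE), so its higher share was not a higher level. Chrnb4 was at 46.9% ± 3.05 in treated ganglia and 48.2% ± 3.27 in controls, so that its share lay within the spread while its CPM did not.

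**Figure D5:**
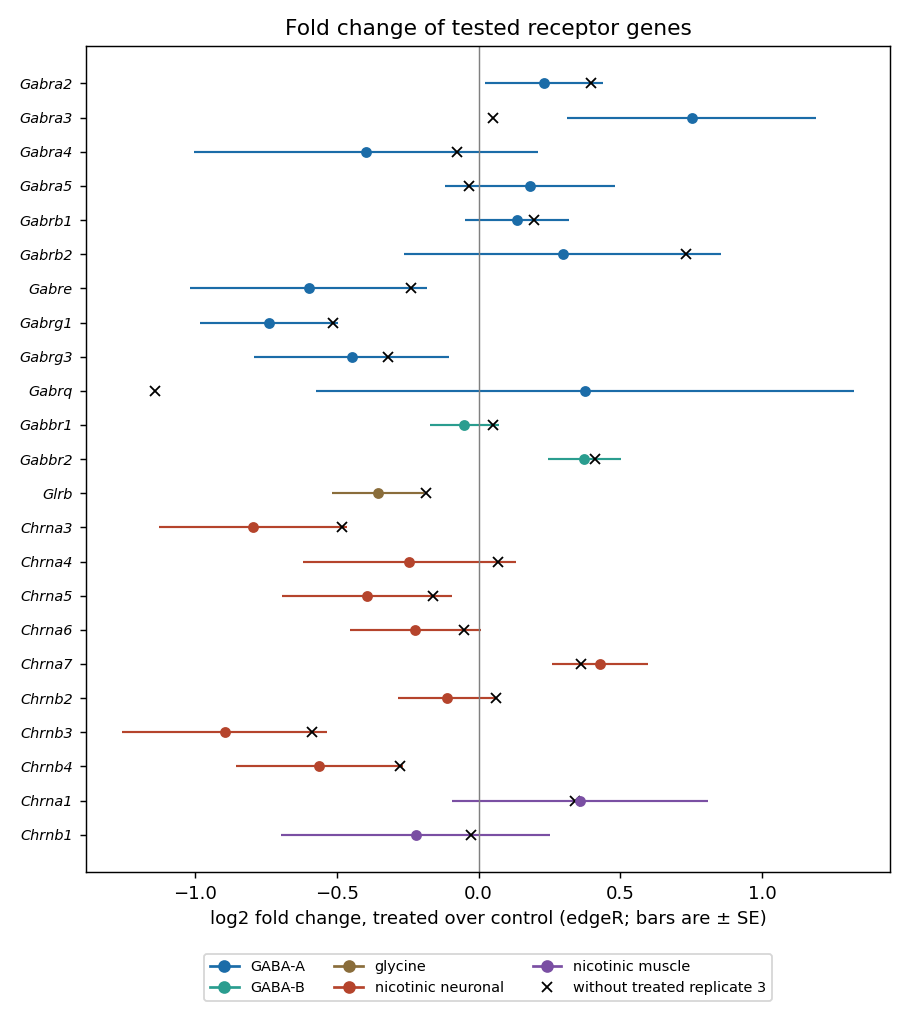
Points give the edgeR log2 fold change of treated over control for tested receptor genes, bars are ± SE, and crosses give the value without treated replicate 3. For Gabra3 the value of 0.75 is 0.05 without that library, and for Gabrb2 0.30 becomes 0.73.

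Of the 5 nicotinic genes of skeletal muscle, 2 were tested, both at 0.556 to 1.13 CPM in every library. Chrna1 had 0.743, 1.11 and 0.953 CPM in treated libraries and 0.802, 0.768 and 0.607 CPM in controls, at a log2 fold change of 0.36 ± 0.45 (SE). Chrnb1 had 1.13, 0.765 and 0.556 CPM in treated libraries and 1.09, 0.768 and 1.08 CPM in controls, at -0.22 ± 0.48. Both pairs of groups overlapped, and with a single library left out Chrna1 ran from 0.19 to 0.50 and Chrnb1 from -0.54 to -0.03. Chrnd, Chrne and Chrng, which encode the delta, epsilon and fetal gamma subunits, had 19, 18 and 2 counts over the treated and 7, 9 and 4 over the control libraries. Skeletal muscle markers summed to 24.9, 7.41 and 36.9 CPM in treated libraries and to 16.3, 94.4 and 154.2 CPM in controls. In the control libraries with most muscle RNA, replicates 2 and 3, the 5 receptor genes summed to 1.84 and 1.69 CPM, against 2.58 CPM in replicate 1. These sums rest on few reads, with at most 20 counts for any of these genes in a control library. The part of muscle cells in them was not tested.

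Genes that work with these receptors were counted in 5 lists, and edgeR called 0 of their 59 tested genes. Of the inhibitory postsynapse and receptor partners, 18 of 18 were tested, with 8 positive and 10 negative log2 fold changes and a median of -0.03. At an unadjusted p under 0.05 there were 0 genes, against 4.0% higher and 2.67% lower over all genes. Lhfpl4, which helps to place GABA-A receptors at synapses, was at 0.08 ± 0.10 (SE) and the trafficking gene Gabarapl1 at -0.12 ± 0.12. The receptor anchor gephyrin (Gphn), named for its role after its value was seen, was at -0.01 ± 0.12, with 42.3 CPM on average in treated and 42.4 CPM in control ganglia.

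Of the genes for synthesis, breakdown and transport of GABA and glycine, 10 of 13 were tested, with a median of -0.04. At an unadjusted p under 0.05, 1 gene was higher and 1 lower, against 4.0% and 2.67% of all genes. Glul, the glutamine synthetase of glia, had 185.1, 250.3 and 303.2 CPM in treated replicates 1, 2 and 3 and 185.5, 187.5 and 180.1 CPM in controls, at a log2 fold change of 0.42 ± 0.17 (SE). Treated replicate 1 lay within the controls. Aldh5a1, which completes GABA breakdown, was at -0.41 ± 0.17, with every treated library below every control, and Abat, the GABA transaminase, was at -0.17 ± 0.10, also without overlap. These were 2 of the 10 tested genes of the list, against 7.63% of all genes that lay below every control. Genes that make or load GABA and glycine were near the limit of detection, with 22 counts in treated and 18 in control libraries for Gad1, 28 and 20 for Gad2, 1 and 5 for the vesicular transporter Slc32a1, and 21 and 7 for the glycine transporter Slc6a5, treated before control.

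Of the chloride transport genes, 10 of 10 were tested, with a median of -0.10 and 1 gene lower at an unadjusted p under 0.05, against 2.67% of all genes. That gene was the potassium-chloride exporter Slc12a7, with 59.9, 76.6 and 67.6 CPM in treated libraries and 84.0, 91.4 and 75.9 CPM in controls, at a log2 fold change of -0.30 ± 0.12 (SE). The kinases of the pathway that controls these transporters, Wnk1 and Stk39, were at 0.04 ± 0.09 and -0.21 ± 0.14. The chloride importer Slc12a2, named for its role, averaged 214.9 CPM in treated and 196.4 CPM in control ganglia, and the exporter Slc12a5, which holds chloride low in central neurons, 2.37 and 1.62 CPM in that order.

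The nicotinic chaperones and Ly6-type partners had 12 of 14 genes tested, a median of -0.02 and 1 gene higher at an unadjusted p under 0.05, against 4.0% of all genes. That gene, Ly6h, which holds back alpha 7 receptors, had 17.2, 11.4 and 19.9 CPM in treated replicates 1, 2 and 3 and 11.9, 10.9 and 11.1 CPM in controls, at a log2 fold change of 0.51 ± 0.21 (SE). As for Chrna7, treated replicates 1 and 3 were high and replicate 2 lay within the controls. Lynx1 and Lypd1, both inhibitory partners of nicotinic receptors, were at -0.20 ± 0.16 and -0.49 ± 0.22.

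Acetylcholine genes and muscarinic receptors had 9 of 10 genes tested, 2 positive and 7 negative log2 fold changes, a median of -0.39 (0.02 over all genes) and 2 genes lower at an unadjusted p under 0.05, against 2.67% of all genes. Nodose markers (6 of 6 negative, median -0.62) and those of sympathetic neurons and glomus cells (5 of 5 tested, median -0.78) were lower too, and their part in these values was not tested. The 2 genes of the list were the choline transporter Slc5a7, with 32.8, 36.8 and 24.2 CPM in treated libraries and 42.0, 40.4 and 40.6 CPM in controls, and the butyrylcholinesterase Bche, with 26.3, 29.4 and 16.8 CPM in treated libraries and 33.5, 34.6 and 36.7 CPM in controls. Their log2 fold changes were -0.39 ± 0.15 and -0.52 ± 0.19 (SE). The acetylcholinesterase Ache, the most abundant gene of the list, was at -0.40 ± 0.19, and every treated library lay below every control for these 3 genes. In all, 4 of the 9 tested genes of the list lay so, against 7.63% of all genes. The acetylcholine-making enzyme Chat had 27 counts over the treated and 38 over the control libraries.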

How the data were processed

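RNA from 3 treated and 3 control libraries of jugular-nodose ganglia was measured by sequencing. The deposited values are raw counts of exonic reads per gene, per the names of the files, and the submitters' processing notes list STAR 2.7.7a and bcl2fastq 2.20, edgeR and DESeq2, and the build mm10, with no roles. The sources used here do not name the counting program, its annotation or its strand setting. Per the labels, libraries came from about the same small amount of RNA with a strand-specific kit.

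The fit over all genes used edgeR 4.0.16 (R 4.3.3): filterByExpr with a minimum count of 10 (16019 genes), TMM scaling, a robust quasi-likelihood F test and Benjamini-Hochberg adjustment over all genes tested, at a threshold of 0.05. SE is the log2 fold change divided by the square root of F. CPM are counts divided by the TMM-scaled library size and put on a common scale. Exon lengths and coordinates are from GENCODE M21 (GRCm38), whose identifiers and symbols matched for all 42 receptor genes. Subunit shares were compared by exact permutation tests over libraries, with adjustment over 17 shares. DESeq2 1.42.0 and limma 3.58.1 were alternatives, with other scalings, filters, a replicate block and each library left out over the same genes. The tests were tried on simulated data. Leaving out each library for the count without overlap was added after seeing the data. Receptor genes and lists were chosen with earlier results of these data known. Some receptor genes are not reported here one by one, though counts and medians include them. Per-library values are given for other receptor genes with an unadjusted p under 0.05, without overlap or at 10 CPM or more, and for some others chosen after their values were seen. In each list, genes with an unadjusted p under 0.05 and the 2 with the highest CPM are named, with a few more chosen for their role.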

Additional observations from a re-analysis of the deposited data

How the results depend on the processing

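The count of receptor genes called stayed at 0 in the 13 other settings, and, with all libraries, at 0 for an adjusted p under 0.1, and 0 genes of the 5 lists were called with any library left out. Of the 26 tested receptor genes, 19 kept their sign in every setting. Those lower at an unadjusted p under 0.05 numbered 4 with the replicate block (3.95% of all genes), 4 with DESeq2 (3.16%) and 5 with sample weights in limma-voom (5.69%), which gave 1 higher (5.55%). With a library left out the number lower ran from 0 to 8 and the number higher from 0 to 4. The number whose groups did not overlap ran from 6 to 12 with a library left out, against 20.7% to 30.9% of all genes. With the replicate number as a block, the median of GABA-A genes was -0.20 and Gabrq was at -0.25. The deviations of same-numbered libraries correlated at 0.014, 0.567 and 0.485 for replicates 1, 2 and 3. Treated replicates 2 and 3 each correlated best with the control of their own number, and treated replicate 1 with control replicate 2 (0.259). These values do not settle whether the libraries are paired. The main fit had no block because the labels do not say what a shared number marks. Without a filter the muscle nicotinic median was 0.35. Sample weights turned the sign of Gabbr1 (0.0019), Chrna4 (0.0698), Gabra4 (0.10) and Gabrq (-1.05).

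Leaving out single libraries, the log2 fold change of Gabrq ran from -1.14 to 0.92, Gabra4 from -0.97 to 0.0805, Gabrb2 from -0.0402 to 0.73, Gabra5 from -0.0347 to 0.38, Chrna4 from -0.68 to 0.0696, Chrnb2 from -0.29 to 0.0612 and Gabbr1 from -0.15 to 0.0519. The treated minus control difference in share, in percentage points, ran from -3.88 to 10.97 for Gabra3, from -3.57 to 1.65 for Gabra5, from -0.28 to 0.96 for Chrna5, from -2.98 to 0.27 for Chrnb4 and from -0.24 to 0.53 for Glrb, and with no division by length that of Gabra5 was 0.26. The cause of these shifts was not tested. Depth limits the 16 untested genes, none of which exceeded 19 counts in a library.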
